A study of Rattus norvegicus with 12 samples.

Results

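The transcripts of 9 genes of inflammation were followed across the cells of the healthy rat liver, in DA (Dark Agouti) and LEW (Lewis) rats: *Il18*, *Il1b*, *Il1a*, *Tnf*, *Il10*, *Il1rn*, *Tgfb1*, *Ifng* and *Nfkbia*. They were chosen by name, 9 of the 32883 genes in the matrices, and each name matched 1 row. The values bear on the question of whether an untreated LEW liver starts from a more inflammatory state than a DA liver. All rats were healthy males by the study's description, which names no treatment of the groups sequenced. The names of the nuclei matrices hold no age and put the word SHAM before the animal number, which the study does not explain. Total liver homogenate (TLH) cells, freed by a 2-step collagenase digestion and run on 10x version 2 chemistry, came from 2 DA and 2 LEW rats. Immune-enriched cells, washed further and depleted of red blood cells and run on version 3 chemistry, came from 1 DA and 1 LEW rat. Single nuclei, also on version 3 chemistry, came from 2 DA and 2 LEW rats, and 2 Visium sections came from Wistar rats. The series text gives 8 to 10 weeks as the age of the TLH rats, while the names of the deposited matrices hold 10 weeks for both DA and 13 weeks for both LEW TLH rats and 9 weeks for the immune-enriched pair. The study's methods give an older age and call the strains age matched. Strain and age cannot be told apart in TLH cells if the matrix names are right.

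These genes form a small circuit of innate immunity. IL-1α and IL-1β both bind the type I IL-1 receptor, and the protein of *Il1rn* occupies the same receptor without signalling. IL-1β and IL-18 are made as precursors that an inflammasome protease cuts, so a transcript level does not give the amount of active cytokine. IκBα, the protein of *Nfkbia*, holds NF-κB in the cytoplasm, and NF-κB switches on *Nfkbia* itself, which makes the gene a common readout of recent NF-κB activity. TNF and interferon-γ are secreted on activation by macrophages and by NK and T cells respectively, while IL-10 and TGF-β1 restrain inflammation. In liver, Kupffer cells, the resident macrophages, are a main source of IL-1 family cytokines and IL-10.

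Levels are UMIs (unique molecular identifiers, counted transcripts) of a gene per 1000000 UMIs of all genes in a cell class (CPM), with the cells of a rat and class summed, so each rat gives 1 value. Strains were compared with edgeR's quasi-likelihood test on those sums, 2 rats against 2, with Benjamini-Hochberg adjustment over all genes tested and a threshold of 0.05; a log2 difference is LEW minus DA. Libraries held 8039397 to 92484173 UMIs, and 1163 to 7112 cells or nuclei a library were kept. Cells were clustered without the 9 genes and classes were named from markers. All 13 Kupffer markers present in the matrices were detected in every Kupffer-like class, but also in TLH hepatocyte-like cells of every rat. Detection alone therefore does not set the class apart. The markers took 1.79 to 3.28% of UMIs in TLH Kupffer-like cells and 0.0422 to 0.0626% in TLH hepatocyte-like cells. Gene names in TLH and immune-enriched cells rest on the assumption that those matrices keep the row order of the nuclei's gene list. No TLH cluster and no nuclei cluster met the rule for T-like cells, so T-like cells were described in the immune-enriched pair only; nuclei gave no NK-like class either. The nuclei libraries shared 8 to 24 barcodes with each other, of 4458 to 10552 each, and barcode lists of the cell libraries were not used here. Genes of the response to dissociation (*Fos*, *Jun*, *Zfp36* and others, 13 genes) summed to 1591 and 2110 CPM in TLH Kupffer-like cells of the DA rats and to 705 and 910 CPM in those of the LEW rats; their part in the results below was not tested. The intervals and floors quoted cover counting error only.

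The bases before the start site are shown for the 4 genes on which the results turn. *Il18* and *Il1b* passed the test together in one class of cells, and *Il1rn* and *Nfkbia* were both highest in 1 DA rat among TLH cells and in 1 among nuclei, in most classes. Each line holds 250 bases upstream of the start site from RefSeq (build GRCr8), 5′ to 3′ on the gene's strand, with capitals marking matches to the motifs described after them. The windows are chr8:59801822-59802071 (plus strand) for *Il18*, chr3:137036582-137036831 (minus strand) for *Il1b*, chr3:27520072-27520321 (plus strand) for *Il1rn* and chr6:78597073-78597322 (minus strand) for *Nfkbia*.
Il18: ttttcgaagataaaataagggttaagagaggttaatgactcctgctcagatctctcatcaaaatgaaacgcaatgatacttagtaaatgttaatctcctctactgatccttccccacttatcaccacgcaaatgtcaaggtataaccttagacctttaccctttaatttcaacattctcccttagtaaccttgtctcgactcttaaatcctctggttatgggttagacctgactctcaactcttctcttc
Il1b: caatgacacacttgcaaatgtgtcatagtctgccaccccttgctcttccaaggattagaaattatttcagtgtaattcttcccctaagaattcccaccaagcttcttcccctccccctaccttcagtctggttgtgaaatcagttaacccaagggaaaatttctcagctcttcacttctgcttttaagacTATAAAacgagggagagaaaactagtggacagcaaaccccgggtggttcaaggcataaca
Il1rn: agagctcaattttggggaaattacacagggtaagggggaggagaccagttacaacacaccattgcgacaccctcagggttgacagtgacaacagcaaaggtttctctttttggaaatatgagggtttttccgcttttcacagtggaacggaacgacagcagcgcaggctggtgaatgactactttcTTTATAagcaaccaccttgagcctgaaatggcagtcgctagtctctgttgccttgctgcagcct
Nfkbia: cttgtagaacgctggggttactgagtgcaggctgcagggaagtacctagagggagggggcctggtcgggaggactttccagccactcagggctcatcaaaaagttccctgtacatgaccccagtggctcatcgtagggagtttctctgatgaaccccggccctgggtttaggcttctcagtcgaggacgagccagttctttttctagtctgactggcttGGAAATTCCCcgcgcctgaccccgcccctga
Both strands were searched for the NF-κB consensus, the PU.1 core GAGGAA, the AP-1 core TGANTCA and the TATA box TATAAA, which were found in 3.54%, 23.3%, 6.34% and 12.9% of 33469 promoter windows of the same length. The *Nfkbia* window held 1 NF-κB match, starting 31 bases before the start site, and none of the other motifs. The *Il1b* and *Il1rn* windows each held 1 TATA match and the *Il18* window held none of the motifs searched. Of the members not printed, *Il1a* held a PU.1, an AP-1 and 2 TATA matches, *Tnf* a PU.1 and a TATA match, *Ifng* a TATA match and *Tgfb1* none. *Il10* is named only.

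Across all 12 libraries, 270029 barcodes and 534814571 UMIs, the 9 genes fell into a detected group and a near-silent group. *Il18*, *Il1b*, *Il1a*, *Il1rn*, *Tgfb1* and *Nfkbia* were counted in every library, with 4707, 3160, 393, 13561, 4776 and 33196 UMIs. *Il10* gave 22 UMIs in 6 libraries and *Ifng* 6 UMIs in 3 libraries. *Tnf* gave 0 UMIs anywhere, which allows a level of up to 0.0056 CPM over all barcodes if its row could be counted. That was not tested, and each limit given for *Tnf* rests on it. By class, *Il18* and *Il1b* were carried by Kupffer-like and Lyz2 myeloid-like cells (monocytes, macrophages and dendritic cells sharing *Lyz2*), *Il1a* by endothelial-like cells, and *Il1rn*, *Tgfb1* and *Nfkbia* by many classes. The classes are described and not tested against each other.

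**Figure D1:**
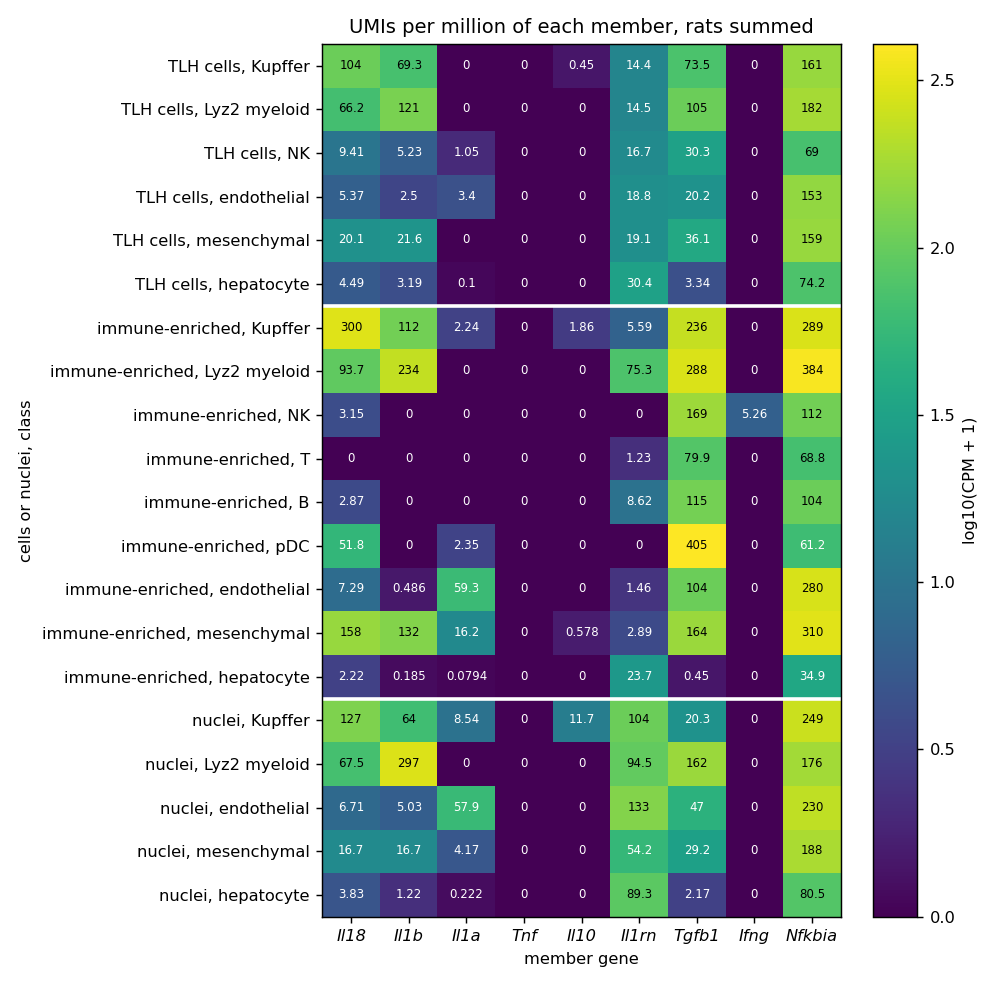
Level of each of the 9 genes (columns) in each class of TLH cells, immune-enriched cells and nuclei (rows), in CPM with the rats of a platform summed, printed in the cells and coloured as log10(CPM + 1). *Tnf* is 0 in every row, *Ifng* is above 0 only in immune-enriched NK-like cells among the classes drawn, and *Il1a* is highest in the endothelial-like rows of the immune-enriched cells (59.3) and the nuclei (57.9).

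*Il18*, the cytokine that drives interferon-γ release from NK and T cells, was higher in LEW than in DA Kupffer-like cells of TLH. The 4 rats gave 430, 538, 272 and 292 such cells (DA-1, DA-2, LEW-1, LEW-2). Their *Il18* level was 65.2 and 63.3 CPM in DA (59 and 103 UMIs) and 168 and 144.5 CPM in LEW (165 and 135 UMIs). Both LEW rats lay above both DA rats, and the log2 difference was 1.24 (SE 0.19, adjusted p = 0.00078, edgeR). *Il1b* measured 51.9 and 54.1 CPM in DA and 86.7 and 94.2 CPM in LEW, again without overlap, with a log2 difference of 0.72 (SE 0.19, adjusted p = 0.033, edgeR). Thus 2 of the 4 members that passed the low-count filter were called, beside 7.00% of the 6467 genes tested in this class. The study had already named *Il18* among its LEW-enriched genes from these same TLH libraries, so this call is not independent of that result. The study also reports more secreted IL-18 protein from LEW than DA myeloid cells stimulated with lipopolysaccharide (LPS). That measures stimulated protein and not baseline transcripts. It further reports that a set of leading strain genes from TLH differed between strains in nuclei and immune-enriched cells. *Il18* passed under every alternative run. *Il1b* kept its sign but did not pass with DESeq2 (0.73, adjusted p = 0.36) or without the cells of most UMIs (0.65, adjusted p = 0.24). It also did not pass without DA-2, LEW-1 or LEW-2, at log2 differences of 0.76, 0.81 and 0.64. Its call was also lost with the replicate number as a block (0.73, adjusted p = 0.065) and with a LEW minimum of 1500 UMIs, the cut-off of the study's methods, and cells chosen by 6 Kupffer markers (0.54, adjusted p = 0.17).

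The Kupffer-like class was made of 2 clusters, and the strains were apart in each of them. In the larger cluster, of 903 cells, *Il18* stood at 85.3 and 88.7 CPM in DA and at 214 and 193 CPM in LEW. In the smaller, of 629 cells, it stood at 21.1 and 26.9 CPM in DA and at 50.9 and 45.4 CPM in LEW. Kupffer markers as a whole also differed: 13 genes such as *Marco*, *Cd5l* and *C1qa* took 1.79 and 2.08% of the UMIs of these cells in DA and 3.16 and 3.28% in LEW. *Cd163* and *Hmox1* are among the 13, and the study lists both among its top DA-enriched genes. A scale set on these markers, here and in the other libraries, can therefore carry strain differences of its own. Set against those markers, *Il18* measured 3.63 and 3.05 UMIs per 1000 marker UMIs in DA and 5.33 and 4.41 in LEW, still without overlap. *Il1b* measured 2.90 and 2.61 in DA and 2.75 and 2.87 in LEW, so on this scale the LEW values lay within the DA range. Hepatocyte markers took 9.10 and 10.7% of the UMIs in DA and 7.19 and 8.32% in LEW, and their part in the *Il18* difference was not tested. Left-out barcodes, all those that failed the cut-offs, include cells: a minimum of 1500 UMIs would keep 12124 barcodes of LEW-1, against 5457 here. In hepatocyte-like cells of the same rats *Il18* was at 5.02, 4.01, 4.74 and 4.36 CPM, each below the rat's own left-out barcodes (5.58, 4.32, 6.02 and 7.02 CPM). Whether these levels exceed free RNA (RNA from outside the cell) was not tested. Set against them, the strain difference in Kupffer-like cells exceeded that in hepatocyte-like cells by 1.26 (log2, SE 0.29, adjusted p = 0.0052, edgeR, 2.61% of genes called), a call lost without DA-1, DA-2 or LEW-1 (adjusted p of 0.091, 0.092 and 0.24).

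The nuclei held the opposite order, without a call. In 61, 87, 69 and 86 Kupffer-like nuclei (DA-1, DA-2, LEW-1, LEW-2), *Il18* stood at 185 and 166 CPM in DA (25 and 33 UMIs) and at 80.5 and 121 CPM in LEW (24 and 37 UMIs). Here both DA rats lay above both LEW rats, with a log2 difference of -0.72 (SE 0.36, adjusted p = 0.39, edgeR). *Il1b* gave 12, 15, 16 and 17 UMIs, or 88.9 and 75.3 CPM in DA against 53.7 and 55.7 CPM in LEW, with a log2 difference of -0.50 (SE 0.40, adjusted p = 0.61, edgeR). None of the 4 members tested was called by edgeR or by DESeq2, and none had an unadjusted p under 0.05, beside 0.985% of genes called, a count of 45 genes that was 0 without either DA rat and 120 and 134 without LEW-1 and LEW-2. The strain difference of *Il18* itself differed between nuclei and TLH cells by -1.97 (log2, SE 0.39, adjusted p = 0.013, edgeR), where 1.53% of genes were called, while that of *Il1b* differed by -1.23 (SE 0.43, adjusted p = 0.15). The call on *Il18* was lost without TLH DA-2, LEW-1 or LEW-2 (adjusted p of 0.051, 0.083 and 0.056). Platform, chemistry and the SHAM label of the matrix names change together. So do the rats, by the study's description of the nuclei as coming from additional animals, and these cannot be told apart.

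The share of Kupffer markers turned over between platforms as well. In Kupffer-like nuclei the markers took 1.08 and 1.03% of UMIs in DA and 0.563 and 0.593% in LEW, the opposite order to TLH cells. Per 1000 marker UMIs, *Il18* stood at 17.1 and 16.1 in DA nuclei and 14.3 and 20.5 in LEW nuclei, and the strains overlapped. *Il1b* stood at 8.22 and 7.33 in DA nuclei and at 9.54 and 9.397 in LEW nuclei, with both LEW rats above both DA rats. The Kupffer-like nuclei held a median of 1421 and 1273 UMIs in DA and 2655 and 1500 in LEW. In the whole libraries, 16 and 34 DA nuclei and 8 and 21 LEW nuclei were chosen by the 6 Kupffer markers. The part of depth and of the marker share in the difference between platforms was not tested.

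Immune-enriched cells, with 1 rat a strain and no test, gave the deepest look at Kupffer-like cells. *Il18* was at 283 CPM in DA (263 UMIs, 125 cells) and 308 CPM in LEW (541 UMIs, 237 cells), a log2 difference of 0.12 on values with 10 CPM added (counting interval -0.17 to 0.41). *Il1b* was at 94.8 and 121 CPM, a difference of 0.32 (-0.14 to 0.78). These counting intervals set the lower limit of a library against the upper limit of the other. They are therefore wider than 95% intervals of the difference. Both include 0, which does not show equal levels. Of the 5 members with at least 10 UMIs in this class, 0 passed a difference of 1 on this scale, which 4.46% of 8546 genes did. *Il1rn* came nearest, with 12 UMIs in DA and 3 in LEW (12.9 and 1.71 CPM, difference -0.97). Kupffer markers took 4.65% of these UMIs in DA and 6.43% in LEW, and on the marker scale the order turned: *Il18* stood at 6.09 UMIs per 1000 marker UMIs in DA and 4.79 in LEW, and *Il1b* at 2.04 and 1.88. The class again held a pair of clusters, and for *Il18* they went opposite ways. In the cluster of low depth (60 DA and 135 LEW cells, median 1442 and 1733 UMIs) it was at 163 CPM in DA and 78.9 CPM in LEW (18 and 26 UMIs), and in the deep one (65 and 102 cells) at 299.7 and 361 CPM (245 and 515 UMIs).

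**Figure D2:**
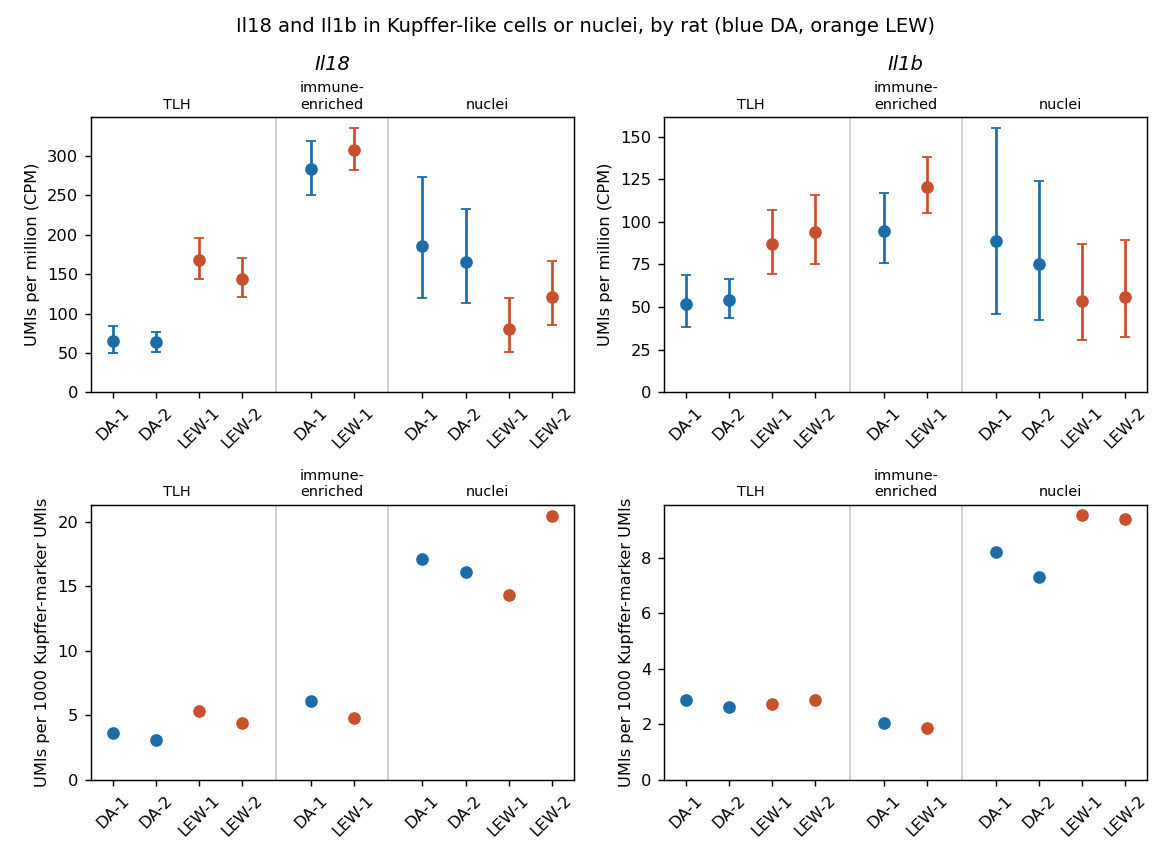
*Il18* (left) and *Il1b* (right) in Kupffer-like cells or nuclei of each rat, DA in blue and LEW in orange. The upper panels give CPM with exact Poisson 95% intervals, and the lower panels give UMIs per 1000 UMIs of 13 Kupffer markers. These markers include *Cd163* and *Hmox1*, which the study lists as DA-enriched. For *Il18* the LEW points lie above the DA points in TLH (144.5 to 168 against 63.3 to 65.2 CPM) and below them in nuclei (80.5 to 121 against 166 to 185 CPM), while in the lower panel for *Il1b* the 4 TLH rats sit together between 2.61 and 2.90.

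In Lyz2 myeloid-like cells of TLH (154, 150, 76 and 89 cells) the same order was seen at lower counts without a call. *Il18* stood at 51.6 and 50.4 CPM in DA and at 89.2 and 91.6 CPM in LEW (17, 26, 23 and 25 UMIs), a log2 difference of 0.77 (SE 0.31, adjusted p = 0.20, edgeR). Kupffer-like cells carried most of these UMIs. A second clustering of the leukocytes set apart 45, 42, 20 and 34 Kupffer-like cells with 12, 15, 16 and 14 *Il18* UMIs (116 and 91.3 CPM in DA, 188 and 127 CPM in LEW), and without them the class held 110, 108, 56 and 55 cells and *Il18* fell below the filter. *Il1b* stood at 63.8 and 132 CPM in DA and at 136 and 158 CPM in LEW, a log2 difference of 0.47 (SE 0.31, adjusted p = 0.48, edgeR). None of the 4 members tested passed with edgeR or DESeq2, 1 had an unadjusted p under 0.05, and 4.18% of genes were called. Kupffer markers took 0.499 and 0.587% of the UMIs of these cells in DA and 0.923 and 1.17% in LEW, and their part was not tested. In the nuclei the class held 10 to 16 nuclei a rat, 0 members passed the filter beside 0.810% of its 247 tested genes called, and *Il1b* gave 2, 17, 1 and 2 UMIs, with the 17 in DA-2 coming from 3 nuclei.

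The immune-enriched Lyz2 myeloid-like cells held the opposite order for *Il1b*. It measured 289 CPM in the DA library (189 UMIs, 101 cells) and 138.5 CPM in the LEW library (53 UMIs, 77 cells), a log2 difference of -1.012 (-1.60 to -0.44) that passed the fold of 1, as 8.97% of genes did. Clustering the leukocytes a second time set apart 16 DA and 10 LEW cells named neutrophil-like, and these few cells held 83 and 29 of the *Il1b* UMIs, or 2908 and 1991 CPM. Without them the level was 170 CPM in DA and 65.2 CPM in LEW, and the log2 difference was -1.26. *Il18* was at 99.5 and 83.6 CPM and *Il1rn* at 58.2 and 104.5 CPM, differences of -0.23 (-1.03 to 0.56) and 0.75 (-0.09 to 1.57) that did not pass the fold. Without the neutrophil-like cells the *Il1rn* levels were 41.6 and 97.8 CPM and the difference, 1.06, passed it. *Nfkbia* was at 335 and 468 CPM, a difference of 0.47 (0.07 to 0.87).

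Mesenchymal-like cells of TLH showed a called *Il18* difference at low counts. The levels were 7.21 and 15.9 CPM in DA and 41.2 and 49.7 CPM in LEW (6, 27, 16 and 16 UMIs), a log2 difference of 1.78 (SE 0.41, adjusted p = 0.034, edgeR), and 1 of the 4 members tested was called beside 2.14% of genes. Left-out barcodes held *Il18* at 5.58 and 4.32 CPM in DA and 6.02 and 7.02 CPM in LEW, near the mesenchymal-like level of DA-1 only. The call was lost with DESeq2 (adjusted p = 0.26) and without LEW-2 (adjusted p = 0.29). Kupffer markers were present in this class at 0.213 and 0.421% of UMIs in DA and 0.480 and 0.761% in LEW. The dissociation genes stood at 2278 and 2712 CPM in DA and 879 and 1205 CPM in LEW, with 7 of 12 tested called lower. The part of either was not tested. The immune-enriched mesenchymal-like cluster carried a larger share of Kupffer markers than in TLH, 1.23% in DA and 3.14% in LEW. Its mesenchymal markers took 2.66% in DA and 1.44% in LEW, less than the Kupffer markers in LEW. The leukocyte gene *Ptprc* was found in 57.8% of its 102 cells. It held 5 and 224 UMIs of *Il1b* (20.6 and 151 CPM, past the fold, as 11.7% of genes were). *Il18* gave 21 and 253 UMIs there (86.4 and 170 CPM). These values are therefore not read as mesenchymal levels, and the part of Kupffer-like cells in them was not tested.

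*Il1a*, whose protein is active without processing, was counted mostly in endothelial-like cells. In endothelial-like nuclei it gave 17, 26, 7 and 19 UMIs, or 66.2 and 84.3 CPM in DA and 24.4 and 55.9 CPM in LEW. Both DA rats lay above both LEW rats, but the log2 difference of -0.84 (SE 0.42, adjusted p = 0.485, edgeR) did not pass. Immune-enriched endothelial-like cells gave 70.5 CPM in DA and 53.9 CPM in LEW (47 and 75 UMIs), a difference of -0.33 (-0.99 to 0.33), and 0 of the 4 members with at least 10 UMIs there passed the fold of 1, which 6.10% of 9164 genes did. The TLH endothelial-like cells, 793, 1001, 473 and 224 of them, held 2, 6, 9 and 2 UMIs (1.40, 2.44, 7.79 and 3.63 CPM), and the nuclei exceeded them by 3.07 on the log2 scale (SE 0.44, adjusted p = 4.3e-06, edgeR), in a comparison where 69.2% of genes were called. TLH Kupffer-like and Lyz2 myeloid-like cells gave 0 UMIs in all 4 rats, which allows up to 3.31 CPM in any rat's Kupffer-like cells, whereas Kupffer-like nuclei gave 0, 2, 5 and 1 UMIs.

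*Il1rn*, the IL-1 receptor antagonist, was lower in LEW than in DA hepatocyte-like nuclei. The rats gave 314 and 91.0 CPM in DA (935 and 341 UMIs) and 26.4 and 36.6 CPM in LEW (206 and 127 UMIs). Both DA rats lay above both LEW rats, the log2 difference was -2.71 (SE 0.54, adjusted p = 0.028, edgeR), and *Il1rn* was the 1 member called of 3 tested, beside 1.70% of genes. LEW-1, which gave 4359 of the 9049 nuclei, stood apart in this class: hepatocyte markers took 18.8% of its UMIs against 13.9 to 14.4% in the other rats, and the 13 dissociation genes stood at 2067 CPM against 5091 to 6666 CPM. It also gave 600 of the 955 nuclei of the largest cluster and 180 of the 213 of another. The part of these in the difference was not tested. Mesenchymal-like nuclei gave 166 and 74.4 CPM in DA against 10.40 and 23.8 CPM in LEW (19, 12, 2 and 6 UMIs), a log2 difference of -2.60 (SE 0.60, adjusted p = 0.030, edgeR, 1.98% of genes called). DA-1 weighed heavily in both: without it the differences were -1.45 in hepatocyte-like and -1.93 in mesenchymal-like nuclei, and neither was called. The hepatocyte-like call was also lost without LEW-1 or LEW-2, at differences of -2.62 and -2.795. With the replicate number as a block, the call in mesenchymal-like nuclei was lost as well (adjusted p = 0.10), as it was with DESeq2 (-2.71, adjusted p = 0.18). The left-out barcodes of the nuclei libraries held *Il1rn* at 77.5 and 19.0 CPM in DA and 9.71 and 20.2 CPM in LEW, an order led by DA-1 as well. The mesenchymal-like LEW levels, with counting intervals of 1.26 to 37.6 and 8.74 to 51.8 CPM, cannot be told from those of the left-out barcodes. The hepatocyte-like levels lay above them in all 4 rats. Left-out barcodes can hold nuclei as well as free RNA. The 13 dissociation genes moved with the difference in mesenchymal-like nuclei, at 15760 and 11680 CPM in DA and 3510 and 6228 CPM in LEW, with 4 of 12 tested called lower, and their part was not tested.

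In the other classes of nuclei and TLH cells the *Il1rn* difference was negative without a call. Endothelial-like nuclei gave 436 and 90.8 CPM in DA and 38.3 and 20.6 CPM in LEW (log2 difference -3.15, SE 0.99, adjusted p = 0.36, edgeR, 0.608% of genes called), and of the 4 members tested there 2 had an unadjusted p under 0.05 and none passed with DESeq2. Kupffer-like nuclei gave 333 and 60.3 CPM in DA and 87.2 and 45.9 CPM in LEW, with overlap (-1.43, SE 0.69, adjusted p = 0.39). The unnamed nuclei, which were not tested, gave 648 and 194 CPM in DA and 75.2 and 53.3 CPM in LEW. TLH hepatocyte-like cells gave 22.5 and 61.6 CPM in DA and 10.1 and 14.3 CPM in LEW (197, 799, 111 and 102 UMIs), a log2 difference of -1.80 (SE 0.65, adjusted p = 0.26, edgeR), and none of the 5 members tested in that class was called by edgeR or DESeq2 or had an unadjusted p under 0.05, beside 4.02% of genes. TLH endothelial-like cells gave 11.9 and 31.8 CPM in DA and 6.92 and 3.63 CPM in LEW, a log2 difference of -2.09 (SE 0.59, adjusted p = 0.095, edgeR), and 0 of 3 members tested was called beside 3.50% of genes, with 1 at an unadjusted p under 0.05 and 0 with DESeq2. Each of these endothelial-like levels lay below the *Il1rn* level of the same rat's left-out barcodes (13.8, 34.7, 8.09 and 12.05 CPM), whereas the hepatocyte-like levels lay above it in all 4 rats. Whether the endothelial-like levels exceed free RNA was not tested. The calls depended on which rats and genes entered: *Il1rn* passed without DA-1 in TLH hepatocyte-like cells (-2.36, adjusted p = 0.0020), without DA-1, LEW-1 or LEW-2 in TLH endothelial-like cells (-2.55, -2.71 and -1.85), without DA-2 in endothelial-like nuclei (-3.92) and without LEW-1 in Kupffer-like nuclei (-1.90, adjusted p = 0.037), where the difference turned to 0.26 (adjusted p = 0.89) without DA-1. In both endothelial-like classes it also passed with the replicate number as a block (-1.79, adjusted p = 0.0044, in TLH and -2.97, adjusted p = 0.00049, in nuclei) and without the filter (-2.14, adjusted p = 0.00011, and -3.14, adjusted p = 0.0018). In TLH Kupffer-like cells the 8, 45, 6 and 5 UMIs fell below the filter, so no strain difference of these cells is read from them. Their levels of 8.84, 27.7, 6.12 and 5.35 CPM also lay under those of each rat's left-out barcodes. The immune-enriched hepatocyte-like cells gave 55.3 CPM in DA and 18.8 CPM in LEW (278 and 617 UMIs), a difference of -1.18 (-1.40 to -0.96) that passed the fold, as 1.27% of genes did.

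*Nfkbia* was highest in a single DA rat among TLH cells and again among nuclei. In TLH Kupffer-like cells it measured 102 and 238 CPM in DA and 134 and 112 CPM in LEW (92, 387, 131 and 105 UMIs), so that DA-2 stood alone and the LEW rats lay within the DA range. Hepatocyte-like cells gave 48.0 and 143 CPM in DA and 42.6 and 30.5 CPM in LEW, endothelial-like cells 88.2 and 229 against 97.8 and 99.7 CPM, mesenchymal-like cells 72.1 and 232 against 85.1 and 90.1 CPM, and NK-like cells 48.4 and 118 against 51.2 and 56.1 CPM. DA-2 was the highest in every TLH class tested. No strain difference was called, with log2 values from -1.37 (SE 0.68, adjusted p = 0.38) in hepatocyte-like cells to -0.49 (SE 0.47, adjusted p = 0.68) in Lyz2 myeloid-like cells. Without DA-1, however, leaving DA-2 as the only DA rat, *Nfkbia* was called lower in LEW in Kupffer-like (-0.9985), Lyz2 myeloid-like (-0.99), endothelial-like (-1.32), mesenchymal-like (-1.45) and hepatocyte-like cells (-1.97). Without DA-2 the sign turned in Kupffer-like cells (0.24, adjusted p = 0.64).

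The barcodes left out by the filters showed the same rat. Their *Nfkbia* level was 39.3 and 115 CPM in DA and 36.3 and 26.1 CPM in LEW, and their *Il1rn* level 13.8 and 34.7 CPM in DA and 8.09 and 12.1 CPM in LEW, with DA-2 highest for both genes. Among nuclei it was DA-1 that stood apart: *Nfkbia* was at 496 and 231 CPM in DA and 285 and 115 CPM in LEW Kupffer-like nuclei, and at 160 and 80.6 CPM against 64.4 and 49.0 CPM in hepatocyte-like nuclei (-1.05, SE 0.40, adjusted p = 0.31, edgeR). Without DA-2, *Nfkbia* was called lower in LEW in endothelial-like (-1.49) and mesenchymal-like nuclei (-1.76). The names of the deposited matrices number TLH DA-2 and nuclei DA-1 alike, as animal 3, and number the LEW libraries 1 and 2 on both platforms. The series text and the study describe the nuclei as coming from additional rats. The study's methods also describe freezing part of a lobe for nuclei before the rest of that liver was perfused for cells. Whether the shared numbers mean the same animals cannot be told. The strain difference of *Nfkbia* in TLH was less negative in Kupffer-like than in hepatocyte-like cells, by 0.91 (log2, SE 0.17, adjusted p = 0.0004, edgeR), and that call was lost without DA-2 (0.66, adjusted p = 0.25) or LEW-2 (0.73, adjusted p = 0.076).

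**Figure D3:**
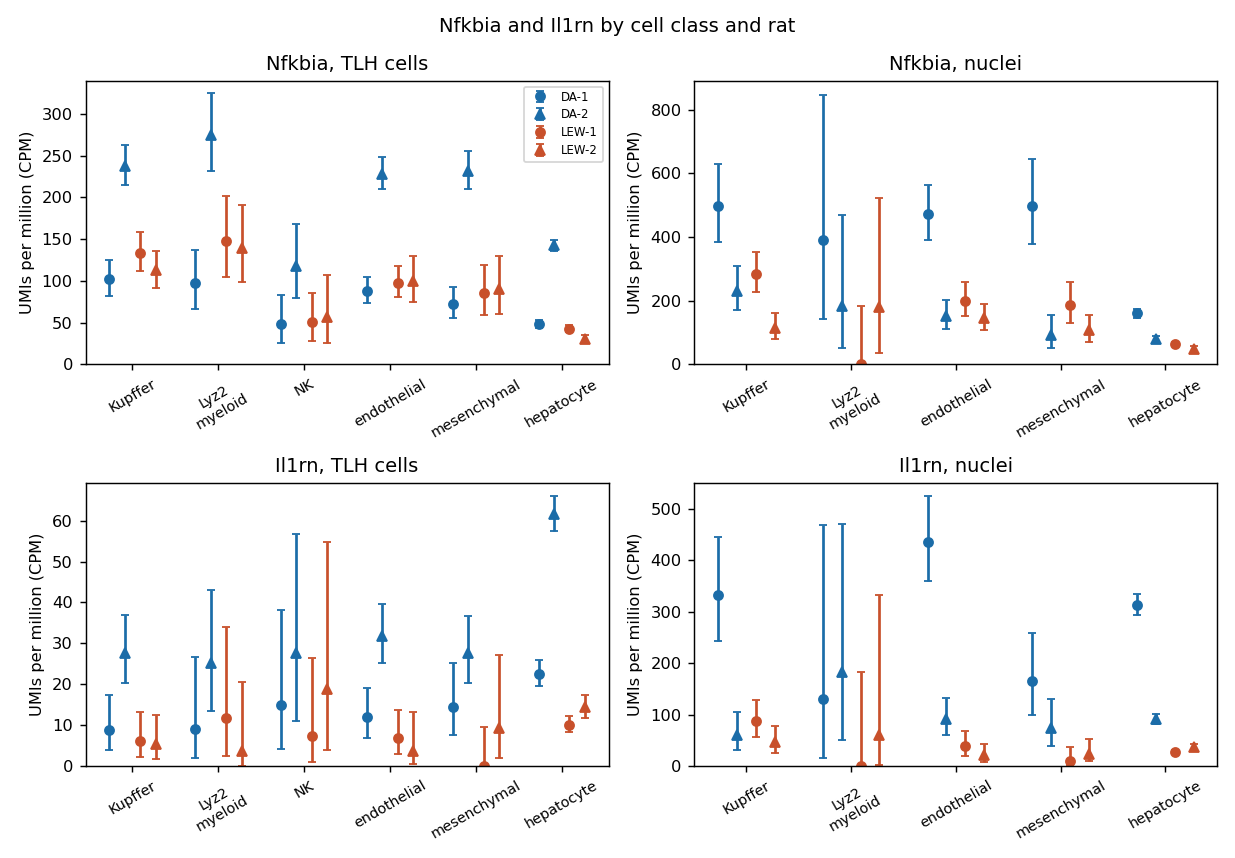
*Nfkbia* (top) and *Il1rn* (bottom) in TLH cells (left) and nuclei (right), as CPM with exact Poisson 95% intervals for each class and rat, DA in blue, LEW in orange, replicate 1 as circles and replicate 2 as triangles. In the TLH panel for *Nfkbia* the triangle of DA-2 stands above the other 3 rats in every class (238 against 102 to 134 CPM in Kupffer-like cells), and in nuclei the circle of DA-1 does so for *Il1rn* in all classes but the Lyz2 myeloid-like one (314 against 26.4 to 91.0 CPM in hepatocyte-like nuclei).

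*Tgfb1*, a restraint on inflammation and the main fibrogenic cytokine of liver, gave no called strain difference. TLH Kupffer-like cells gave 63.0 and 68.3 CPM in DA and 82.6 and 83.5 CPM in LEW, apart but not called (log2 difference 0.29, SE 0.19, adjusted p = 0.41, edgeR). Lyz2 myeloid-like cells gave 100 and 122 CPM in DA and 105 and 77.0 CPM in LEW (-0.37, SE 0.28, adjusted p = 0.56). NK-like cells gave 40.9 and 23.6 CPM in DA and 14.6 and 49.9 CPM in LEW (-0.27, SE 0.69, adjusted p = 0.93), and neither of the 2 members tested in that class was called by edgeR or DESeq2 or had an unadjusted p under 0.05, beside 2.51% of genes. In endothelial-like nuclei the DA rats, at 77.9 and 64.9 CPM, lay above the LEW rats, at 34.9 and 17.7 CPM, with a log2 difference of -1.42 (SE 0.45, unadjusted p = 0.0065, adjusted p = 0.21, edgeR). The immune-enriched pair spread the gene over the leukocytes: 248 and 230 CPM in Kupffer-like, 282 and 298 in Lyz2 myeloid-like, 167 and 173 in NK-like, 90.8 and 66.2 in T-like, 108 and 124 in B-like and 392 and 437 CPM in pDC-like cells (DA and LEW). None of these passed the fold of 1, which 8.96% of genes did in NK-like, 8.41% in T-like, 15.8% in B-like and 11.8% in pDC-like cells.

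*Il10*, the antagonist of macrophage activation, appeared in Kupffer-like cells at a few UMIs. Kupffer-like nuclei of the DA rats gave 8 and 3 UMIs, in 6 and 3 nuclei, and those of the LEW rats gave 0 and 0. Over each strain's nuclei that is 32.9 CPM in DA, and the 0 in LEW allows up to 4.97 CPM, from a limit of 3 counts over the strain. DA-1 gave most of the UMIs, and DA-2 alone stood at 15.1 CPM with a counting interval of 3.11 to 44.0 that includes the LEW limit. The gene fell below the low-count filter and was tested only without it (adjusted p = 0.0066, edgeR). Immune-enriched Kupffer-like cells gave 5 UMIs in DA (5.39 CPM, 1.75 to 12.6) and 0 in LEW, which allows up to 1.71 CPM, with 1 rat a strain. TLH Kupffer-like cells gave 0, 1, 1 and 0 UMIs, where no order can be read.

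*Tnf* and *Ifng*, the effector cytokines of activated macrophages and of NK and T cells, were at or near 0. *Tnf* gave 0 UMIs in every class of every library, which allows up to 3.31 CPM in the Kupffer-like cells of any TLH rat and up to 1.71 CPM in those of the LEW immune-enriched library. Its row is not alone in this: 11883 of the 32883 rows (36.1%) were at 0 in all libraries, *Ltb*, a neighbouring member of the TNF family, among them, and *Lta* gave 33 UMIs. Whether the rows of *Tnf* and *Ltb* could be counted was not tested, so their 0 is not read as silence of the genes. The TNF receptor genes *Tnfrsf1a* and *Tnfrsf1b* gave 33126 and 3031 UMIs. Of the 6 *Ifng* UMIs, 3 came from DA and 2 from LEW immune-enriched NK-like cells (137 and 70 cells, 5.02 and 5.66 CPM) and 1 from a left-out barcode of the TLH LEW-2 library. TLH NK-like cells gave 0 *Ifng* UMIs in 148, 96, 102 and 65 cells, which allows up to 11.2, 11.8, 10.97 and 18.7 CPM, and the immune-enriched T-like cells gave 0 in 104 and 79 cells, which allows up to 6.65 and 8.28 CPM. A strain difference of *Ifng* was not detectable at this depth, and the 0 of *Tnf* gives none to compare.

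Few IL-1 family transcripts were counted in T-like and NK-like cells. The 411 NK-like cells of TLH held 9 UMIs of *Il18*, 5 of *Il1b*, 1 of *Il1a* and 16 of *Il1rn* (9.41, 5.23, 1.05 and 16.7 CPM). Immune-enriched T-like cells gave 0 UMIs of *Il18*, *Il1b*, *Il1a* and *Il10* in both strains, and 0 and 1 UMIs of *Il1rn*. NK-like cells of the same libraries gave 3 and 0 UMIs of *Il18* and none of *Il1b*, *Il1a*, *Il10* or *Il1rn*. *Nfkbia* was at 77.5 and 58.0 CPM in T-like and at 134 and 76.4 CPM in NK-like cells (DA and LEW), differences of -0.37 (-1.36 to 0.62) and -0.74 (-1.55 to 0.06) whose counting intervals include 0. The pDC-like cells, whose usual cytokines are interferons, gave 21 *Il18* UMIs in 42 DA cells and 1 in 16 LEW cells, 69.2 and 8.24 CPM, past the fold. The counting interval, wide in the same way, was -3.50 to 0.08.

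**Figure D4:**
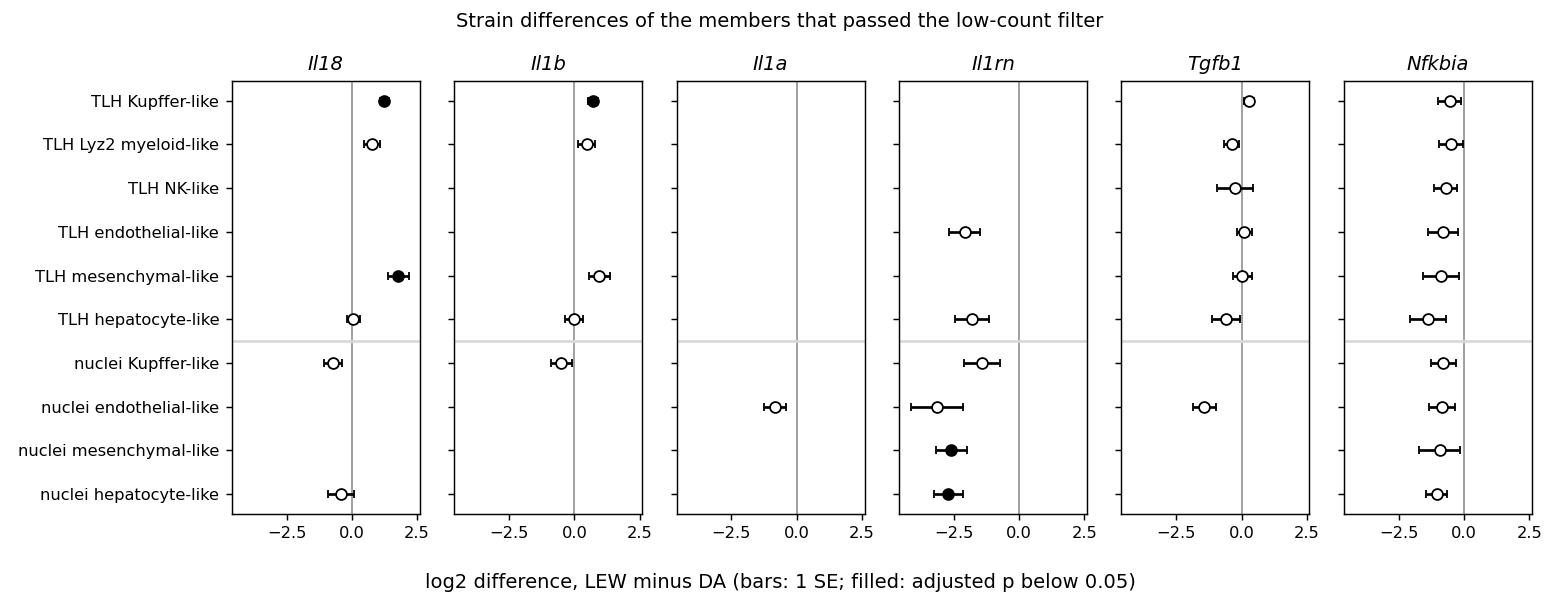
Log2 strain difference (LEW minus DA) with 1 SE for each member that passed the low-count filter, by class of TLH cells (above the grey line) and nuclei (below it); filled points have an adjusted p below 0.05. The 5 filled points are *Il18* in TLH Kupffer-like and mesenchymal-like cells and *Il1b* in TLH Kupffer-like cells, at 1.24, 1.78 and 0.72, and *Il1rn* in mesenchymal-like and hepatocyte-like nuclei, at -2.60 and -2.71.

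The partners of these cytokines were read from 7 lists of 95 further genes in the matrices, tested with edgeR only. In TLH Kupffer-like cells 8 of the 55 partners tested were called by edgeR, all higher in LEW, and 16 had an unadjusted p under 0.05, beside 7.00% of all genes called and 1450 of 6467 at an unadjusted p under 0.05. Of the 12 tested from the IL-1 and IL-18 list 3 were higher: *Il18bp*, the soluble decoy that binds IL-18, *Pycard*, the inflammasome adaptor, and *Casp1*, the protease that cuts IL-1β and IL-18. *Il18bp* stood at 80.6 and 146 CPM in DA and at 228 and 250 CPM in LEW (log2 difference 1.007, SE 0.25, adjusted p = 0.031, edgeR), *Pycard* at 203 and 170 against 293 and 325 CPM, and *Casp1* at 24.3 and 17.8 against 42.9 and 39.6 CPM. Of the interferon-γ list 3 of 10 were higher, *Gbp2*, an interferon-induced GTPase, at 50.8 and 64.0 against 188 and 165 CPM (1.55, SE 0.19, adjusted p = 0.00019), *Irf1*, an interferon-response factor, at 35.4 and 34.4 against 79.6 and 71.7 CPM, and the kinase *Jak2*. *Jak1* of the IL-10 list (1 of 5) and *Tnfaip8* of the TNF list (1 of 9) were also higher. The 7 NF-κB, 5 LPS-sensing and 7 TGF-β genes tested held none of the 8 calls. The median log2 difference of the tested genes was 0.33 for the IL-1 and IL-18 list and 0.55 for the interferon-γ list, beside 0.0015 for all genes of the class. In Kupffer-like nuclei the median of the 5 interferon-γ genes tested was -0.56 with none called, and between platforms the strain difference of 10 of them had a median of -1.27 with 1, *Jak2*, called lower (-1.62, SE 0.41, adjusted p = 0.048, edgeR). In TLH Kupffer-like cells 5 of the 11 dissociation genes tested were lower, among them *Fos*, with a log2 difference of -2.59.

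In the other classes partners were called in both directions. Hepatocyte-like cells of TLH had *Casp4* and *Jak1* higher in LEW and *Il6r*, *Bcl3*, *Cxcl9* and *Cxcl10* lower, the last 2 being chemokines that interferon-γ induces: *Cxcl9* was at 36.6 and 32.6 CPM in DA and at 10.0 and 13.9 CPM in LEW (-1.52, SE 0.19, adjusted p = 0.0054, edgeR, with 4.02% of genes called). *Cxcl9* was also lower in TLH mesenchymal-like cells and in hepatocyte-like nuclei, where the levels were 8.72 and 12.3 CPM in DA and 2.82 and 2.88 CPM in LEW (-1.83, SE 0.44, adjusted p = 0.049). *Gbp2* was higher in LEW in Lyz2 myeloid-like and mesenchymal-like cells, where *Irf8* and *Irf1* were lower and higher respectively. In TLH, 6 of 67 partners tested were called in hepatocyte-like, 2 of 24 in Lyz2 myeloid-like and 3 of 42 in mesenchymal-like cells. These counts stand beside 4.02, 4.18 and 2.14% of genes. In hepatocyte-like nuclei *Cxcl9* was the 1 partner called of 60 tested, beside 1.70% of genes. In mesenchymal-like nuclei *Il6r* was the 1 partner called of 20 tested, lower in LEW, beside 1.98% of genes. In Kupffer-like nuclei 0 of 38 partners were called by edgeR, with 8 at an unadjusted p under 0.05, beside 0.985% of genes called. In TLH endothelial-like cells it was 0 of 52, with 10 at an unadjusted p under 0.05, beside 3.50% of genes called.

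Between platforms, several members differed in level. Kupffer-like nuclei had *Tgfb1* lower than TLH cells by -2.78 (log2, SE 0.32, adjusted p = 4.7e-07, edgeR) and *Il1b* lower by -1.05 (SE 0.27, adjusted p = 0.0021), while *Il1rn*, whose level in these TLH cells did not exceed the left-out barcodes, was higher by 2.36 (SE 0.55, adjusted p = 0.0027). *Il18* (-0.57, SE 0.33, adjusted p = 0.13) and *Nfkbia* (-0.05, SE 0.32, adjusted p = 0.90) did not pass. These 3 calls of 5 members stand beside 65.3% of all genes called. In hepatocyte-like nuclei *Il18*, *Il1b* and *Tgfb1* were lower, by -0.81, -1.97 and -1.29, where 65.4% of genes were called. None of the 3 lay above the range of the left-out barcodes there, and free RNA was not measured. In TLH the hepatocyte-like levels, 4.49, 3.19 and 3.34 CPM, lay within the range of the left-out barcodes, which held *Il18* at 4.32 to 7.02, *Il1b* at 3.001 to 4.998 and *Tgfb1* at 3.14 to 6.59 CPM. In nuclei the hepatocyte-like levels, 3.83, 1.22 and 2.17 CPM, lay below the left-out barcodes, at 5.55 to 14.7, 2.31 to 13.1 and 3.47 to 13.9 CPM. In hepatocyte-like cells no member's strain difference differed between platforms, by edgeR or DESeq2, with none at an unadjusted p under 0.05 and 0.00888% of genes called.

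Across the 24 sums of TLH rat and class, the gene whose log2(CPM + 10) followed *Il1b* most closely was *Spi1* (r = 0.977), which encodes the macrophage factor PU.1, then *Ly86* (0.971) and *Napsa* (0.970). *Il18* was closest to AABR07002674.1 (0.973), *Lta4h* (0.972) and *Capg* (0.971), *Tgfb1* to *Tmsb4x* (0.950), *Cotl1* and *Capzb*, *Il1rn* to *Mfsd2a* (0.897), *Hsd17b6* and *Slc38a2*, and *Nfkbia* to LOC100911713 (0.840), *Cttnbp2nl* and *Csnk1e*. These points share rats and libraries, and the values are a description. On the 2 Visium sections of Wistar liver, *Il18* was at 9.06 and 9.68 CPM, *Il1b* at 5.78 and 7.67, *Il1rn* at 30.1 and 33.3, *Tgfb1* at 6.79 and 8.01 and *Nfkbia* at 61.4 and 64.2 CPM. *Il1a* gave 3 and 3 UMIs there, and *Tnf*, *Il10* and *Ifng* gave none in 34449562 and 34827603 UMIs, which allows up to 0.0871 and 0.0861 CPM.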

How the data were processed

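Matrices of UMI counts were analysed as deposited: per the labels, Cell Ranger 3.1.0 (cells, nuclei) and Space Ranger 1.1.0 (sections) made them, and the authors had not normalized these counts. Gene names of the TLH and immune-enriched matrices were taken by row from the nuclei's list of 32883 genes (Ensembl annotation of Rnor_6.0). Barcodes were kept above 1500 (TLH DA-1), 2000 (other TLH) or 1000 UMIs and below 30, 20, 40 and 40% (TLH DA-1, DA-2, LEW-1, LEW-2), 50% (immune-enriched) or 10% (nuclei) mitochondrial UMIs. The study's methods state 1500 UMIs for both LEW TLH libraries, and the 2000 used here departs from that wording. It keeps 5457 and 3844 LEW cells, the numbers that the study reports, where 1500 would keep 12124 and 7857. The minimum of 1500 was run as an alternative only together with cells chosen by 6 Kupffer markers. Doublets were not called; leaving out the 6% of cells with most UMIs was an alternative. Each platform was clustered with sctransform 0.4.2 (3000 genes, the 9 members left out), irlba 2.3.5.1 (15 components), a re-implementation of Harmony over libraries and Seurat 5.3.0. A cluster was named when at least 3 markers of a list were among its 30 leading genes against all other clusters, more than of any other list, and no other list held more of its first 10, which left 1 TLH cluster of 420 cells with 6 Lyz2 myeloid markers unnamed. A cluster left without a name was called hepatocyte-like when at least 3 hepatocyte markers were among its 100 leading genes against the named clusters of other types.

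Counts were summed per rat and class (at least 10 cells) and tested with edgeR 4.0.16 (TMM, filterByExpr, robust quasi-likelihood F-test, Benjamini-Hochberg over all genes, threshold 0.05) in R 4.3.3. Alternatives were DESeq2 1.42.0, other scaling, no filter, other cell cut-offs, the replicate number as a block and leaving out each rat. With 1 rat a strain, differences of log2(CPM + 10) were given, and 10 or more UMIs over both libraries were required. Their bounds set the lower exact Poisson 95% limit of a library against the upper limit of the other. Such bounds are wider than a 95% interval of the difference. For 0 UMIs the limit is 3 counts. Genes were named as members, as called genes of fixed lists, and as the 3 genes of highest correlation. The members and lists were chosen with earlier results of these data known. The strain test was tried on simulated counts, drawn with a common dispersion for all genes of a class. Log2 changes of 1 were recovered for 45% of changed genes in TLH Kupffer-like cells and 15% in Kupffer-like nuclei. In TLH Lyz2 myeloid-like and hepatocyte-like cells the shares were 25 and 54%. Log2 changes of 2 were recovered for 88, 64, 80 and 98% in the same order, and 10, 3, 6 and 9 unchanged genes were called. For genes that vary more between rats than the common dispersion, these shares are too high. A difference without a call is therefore not shown to be absent. Samples of one group are different rats by their labels, and p-values measure the spread between 2 rats a strain.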

Additional observations from a re-analysis of the deposited data

Results flagged for a closer look

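The strain difference of *Il18* in Kupffer-like cells differed between platforms by -1.97 on the log2 scale (SE 0.39, adjusted p = 0.013, edgeR), being 1.24 in TLH cells and -0.72 in nuclei. It was flagged because the difference between the contrasts was itself tested, and the call was lost without TLH DA-2, LEW-1 or LEW-2 (adjusted p of 0.051, 0.083 and 0.056). With the animal number of the file names as a term it was -1.99 (adjusted p = 0.0017), a fit that takes libraries of the same number as 1 animal although the study describes the nuclei as coming from additional rats. In TLH cells the strain difference of *Il18* differed between Kupffer-like and hepatocyte-like cells by 1.26 (SE 0.29, adjusted p = 0.0052), and that of *Nfkbia* by 0.91 (SE 0.17, adjusted p = 0.0004). The hepatocyte-like *Il18* levels did not exceed those of each rat's left-out barcodes. Both classes come from the same 4 rats, and the fit had the rat as a term. Groups held 2 rats or fewer, too few for a test of single outlying rats. Per 1000 Kupffer-marker UMIs, *Il18* overlapped between the strains in nuclei, at 17.1 and 16.1 in DA and 14.3 and 20.5 in LEW. The causes of the differences between platforms and between classes were not tested.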

How the results depend on the processing

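Leaving out a rat leaves 1 sample in an arm, which is then assumed to vary like the other group. The number of members called in TLH was 2 in Kupffer-like cells, 1 with DESeq2, with the replicate block, without the cells of most UMIs and with a LEW minimum of 1500 UMIs and cells chosen by 6 Kupffer markers, and 1 to 4 with a rat left out. It was 0 in Lyz2 myeloid-like cells (0 to 1 with a rat left out), 0 in endothelial-like cells (1 without the low-count filter, 1 with the replicate block, 0 to 2 with a rat left out), 1 in mesenchymal-like cells (0 with DESeq2, 2 without the filter, 0 to 2) and 0 in hepatocyte-like cells (0 to 2). In nuclei it was 0 in Kupffer-like (1, *Il10*, without the filter, 0 to 1 with a rat left out), 0 in endothelial-like (1 without the filter, 1 with the replicate block, 0 to 2), 1 in mesenchymal-like (0 with DESeq2, 0 with the replicate block, 0 to 2) and 1 in hepatocyte-like nuclei (0 to 1). For the strain difference between platforms it was 1 in Kupffer-like cells (0 to 1), and between classes 2 (0 to 2), where DESeq2 gave no adjusted p for the called members. Between platforms it was 3 in Kupffer-like (6 without the filter, 3 to 4 with a rat left out), 3 in hepatocyte-like (2 to 4) and 2 in endothelial-like cells (1 to 2). In the immune-enriched pair 4 values passed the fold, and 2 did with 50 CPM added. Other member counts stayed within 1.5 times under the alternatives run, except that the crossed pairing described below called 1 member in endothelial-like TLH cells and 1 in endothelial-like nuclei.

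No called member reversed. Among uncalled ones, the *Tgfb1* difference in TLH mesenchymal-like cells was -0.057 without the filter, that of *Il1b* in Kupffer-like nuclei was 0.15 without the cells of most UMIs, and *Nfkbia* between platforms was 0.016 and 0.030 in Kupffer-like and 0.011 and 0.023 in endothelial-like cells with RLE scaling and DESeq2. With 1 rat left out at a time, members that no main test called crossed 0. *Nfkbia* ran from -0.9985 to 0.24 in TLH Kupffer-like cells, -0.99 to 0.47 in TLH Lyz2 myeloid-like cells, -1.24 to 0.068 in TLH NK-like cells, -1.32 to 0.046 in TLH endothelial-like cells, -1.45 to 0.19 in TLH mesenchymal-like cells, -1.49 to 0.27 in endothelial-like nuclei, -1.76 to 0.72 in mesenchymal-like nuclei, -1.04 to 0.50 for the strain difference between platforms in Kupffer-like cells, -0.76 to 0.95 for the strain difference between platforms in hepatocyte-like cells, -0.34 to 0.19 for the platform difference in Kupffer-like cells, -0.40 to 0.27 for the platform difference in hepatocyte-like cells and -0.57 to 0.31 for the platform difference in endothelial-like cells. *Tgfb1* ran from -1.20 to 0.56 in TLH NK-like cells, -0.19 to 0.38 in TLH mesenchymal-like cells, -1.40 to 0.0056 in TLH hepatocyte-like cells, -0.00080 to 1.47 for the strain difference between platforms in hepatocyte-like cells and -0.053 to 0.49 for the platform difference in endothelial-like cells. *Il1b* ran from -0.30 to 0.28 in TLH hepatocyte-like cells. *Il18* ran from -0.079 to 0.18 in TLH hepatocyte-like cells. *Il1rn* ran from -2.275 to 0.26 in Kupffer-like nuclei, -0.77 to 2.14 for the strain difference between platforms in Kupffer-like cells, -1.945 to 0.28 for the strain difference between platforms in hepatocyte-like cells and -0.32 to 0.41 for the strain difference between classes.

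The numbers of all genes called moved more widely: 453 in TLH Kupffer-like cells became 191 with DESeq2, 701 without the filter, 164 without the cells of most UMIs, 399 with cells by 6 Kupffer markers, 260 with those and a LEW minimum of 1500 UMIs together and 265 to 854 with a rat left out. The other counts were 136 in Lyz2 myeloid-like cells (47 with DESeq2, 222 without the filter), 72 in NK-like (29, 122), 252 in endothelial-like (112, 548), 117 in mesenchymal-like (52, 293), and 398 in hepatocyte-like cells (1100 without the filter). In nuclei they were 45 in Kupffer-like (214 without the filter, 0 without either DA rat, 120 without LEW-1, 134 without LEW-2, 3 by 6 markers, 9 without the cells of most UMIs), 32 in endothelial-like (163 without the filter), 69 in mesenchymal-like (24 with DESeq2, 118 without the filter) and 164 in hepatocyte-like nuclei (356 without the filter). For the strain difference between platforms 123 became 270 without the filter and 1 became 26, and between classes 253 became 24 with DESeq2. With a rat left out, the other TLH counts ran from 121 to 222 (Lyz2 myeloid-like), 59 to 168 (NK-like), 274 to 592 (endothelial-like), 36 to 279 (mesenchymal-like) and 117 to 250 (hepatocyte-like). Those of nuclei ran from 64 to 193 (endothelial-like), 49 to 126 (mesenchymal-like) and 86 to 481 (hepatocyte-like), and those between platforms and between classes from 15 to 209 and 48 to 163 in Kupffer-like cells.

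The replicate numbers are shared by label only, and the correlations of same-numbered deviations were -0.15 to 0.08 except in Lyz2 myeloid-like nuclei (0.53). The replicate block changed the calls of the members given above and moved the genes called to 40 in Lyz2 myeloid-like, 14 in NK-like, 450 in endothelial-like, 270 in mesenchymal-like and 193 in hepatocyte-like TLH cells, and to 94, 95, 29 and 433 in Kupffer-like, endothelial-like, mesenchymal-like and hepatocyte-like nuclei. The crossed pairing was chosen after seeing the data, like the terms for animal number and the counts without re-clustered Kupffer-like or neutrophil-like cells. It was run in every strain comparison and its gene counts are given where that correlation was under -0.1. There it gave 714, 243 and 795 genes, with 2, 1 and 0 members, in TLH Kupffer-like, mesenchymal-like and hepatocyte-like cells. With the animal number as a term, 266 and 25 genes were called for the strain difference between platforms. Without re-clustered Kupffer-like cells 70 genes were called in Lyz2 myeloid-like cells. Of 193 levels recomputed from thinned cells 141 stayed within their counting interval and 52 did not. The TLH T-like test and its alternatives were not run. At a few UMIs a rat, as for *Il10*, *Ifng* and *Il1a* outside endothelial-like cells, depth limits any comparison.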

Other observations

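The few neutrophil-like cells of the immune-enriched libraries, 16 in DA and 10 in LEW, also held 12 and 4 *Il1rn* UMIs (420 and 275 CPM), beside *Il1b* in 15 and 10 of them. An unnamed group of re-clustered immune-enriched leukocytes, 40 DA and 42 LEW cells, held most *Il1rn* UMIs of the Lyz2 myeloid-like class, 23 and 30 (137 and 200.4 CPM), and little *Il1b* (5 and 8 UMIs). The re-clustered Lyz2 myeloid-like group, 41 and 23 cells, held the reverse, with *Il18* at 147 and 139 CPM, *Il1b* at 224 and 76.7 CPM and 3 and 6 *Il1rn* UMIs. These groups come from 1 rat a strain and are given as values only.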
